A study of Mus musculus with 24 samples.

Results

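Accessible chromatin of the mouse lower jaw was compared between the mandibular process at E12.5 (days of embryonic development, 2 libraries) and Meckel's cartilage at E14.5 (MC, 3 libraries), chosen as the 5 jaw ATAC libraries among 24 samples of the series. All 5 came from wild-type C57BL/6 embryos, with 50000 cells taken into each transposition and 15 cycles of PCR. The E12.5 cells were the dissociated cells of the entire dissected process, after trypsin and type II collagenase. The E14.5 cells came from the dissected cartilage bars alone. Stage and dissection therefore changed together and cannot be told apart, and in such bulk libraries fewer cells of a type and less signal per cell cannot be told apart either. The labels of the E12.5 libraries disagree among themselves: titles and protocols give E12.5 ATAC, while a description field names an E14.5 Hi-C library and the cell type field names Meckel's cartilage. Titles and protocols were followed. The labels do not say which embryos or pools a replicate came from, so a p-value measures only the spread between these libraries.

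Meckel's cartilage is the rod of cartilage, derived from cranial neural crest, that forms the first skeleton of the lower jaw. The crest mesenchyme of the mandibular process condenses, turns on Sox9 with its partners Sox5 and Sox6, and then secretes a matrix built on type II collagen and aggrecan. Before and during that step, Dlx, Hand, Msx and Prrx genes pattern the process along its axes. The process also holds surface epithelium, muscle precursors, nerve, vessels and blood cells, most of which a clean cartilage bar lacks. ATAC-seq cuts DNA where chromatin is open, and a peak list gives the stretches with more cuts than background.

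Each deposited list was reduced to its 43205 peaks of highest score, the number in the shortest list. The lists held 74706 and 70042 usable peaks at E12.5 (replicates 1 and 2) and 54192, 43205 and 49872 in MC. No read counts come with them, so the sequencing depth is unknown. The top peaks of E12.5 replicate 1 covered 64.1 Mb, against 37.1 Mb in replicate 2 and 38.7, 43.9 and 43.2 Mb in MC. Their median width was 1218 bp in E12.5 replicate 1, 727 bp in replicate 2, and 782, 886 and 851 bp in MC. E12.5 replicate 1 was thus the widest of the 5 and replicate 2 the narrowest, so the E12.5 values lay on both sides of MC (mean 972.5 against 839.7 bp, exact two-sided permutation p = 0.7, n = 2 and 3, smallest possible p 0.1).

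E12.5 replicate 1 also lay elsewhere in the genome. In gene-dense chromosome stretches, those with more than 23 protein-coding genes within 500 kb, it placed 35.3% of its cover, against 18.1% for replicate 2 and 19.4%, 23.7% and 21.2% for MC. In gene-poor stretches (11 genes or fewer) it placed 27.4%, against 56.6% for replicate 2 and 52.8%, 46.3% and 51.6% for MC. On chromosome X it placed 0.603% of its cover, against 2.33% and, in MC, between 1.54% and 1.95%. The share of top peaks within 1 kb of a gene start was alike in the lists: 31.6% and 33.1% at E12.5, and 32.2%, 33.3% and 33.2% in MC (difference 0.524 percentage points, exact two-sided permutation p = 0.5).

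Likeness in base pairs set E12.5 replicate 1 apart as well. The Jaccard index, shared bases over all bases in either list, was 0.208 between the 2 E12.5 lists. E12.5 replicate 1 reached 0.207, 0.262 and 0.241 with the 3 MC lists, while replicate 2 reached 0.360, 0.409 and 0.457. Pairs of MC lists gave 0.377, 0.400 and 0.478, so E12.5 replicate 2 was about as close to MC as MC libraries were to each other. With the 3 E14.5 forelimb cartilage lists (FL), replicate 2 gave 0.398, 0.439 and 0.428 and replicate 1 between 0.188 and 0.202. Mean likeness within a stage was 0.366 and between stages 0.323, a difference of 0.0431 (exact one-sided permutation p = 0.3, 10 arrangements, smallest possible p 0.1). Without MC replicate 2 or MC replicate 3 the sign of that difference turned (-0.0125 and -0.0173).

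**Figure D1:**
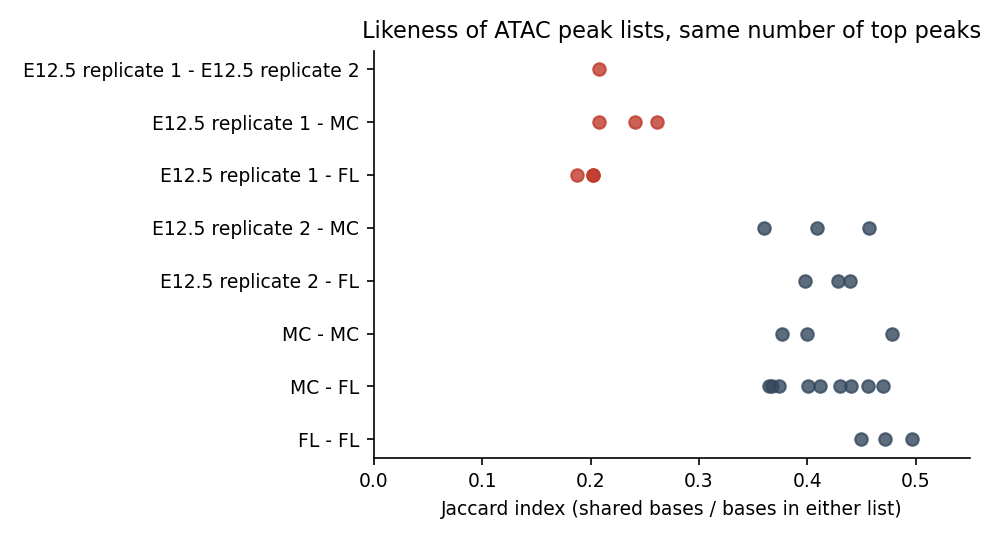
Jaccard index (x axis, shared bases over bases in either list) for every pair of the 8 ATAC lists, grouped by kind of pair (y axis); each point is a pair, and red marks pairs with E12.5 replicate 1. Pairs with E12.5 replicate 1 lie between 0.188 and 0.262, and those of replicate 2 with MC between 0.360 and 0.457.

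Merging the top peaks of the 5 lists gave 89044 regions, of which 13911 held a peak in every list. The regions that both E12.5 lists shared numbered 17160, and 81.1% of them were open in all 3 MC lists and 96.9% in at least 1. Read the other way, 22476 regions were shared by the 3 MC lists, and E12.5 replicate 2 held 87.2% of them while replicate 1 held 65.2%. Most chromatin found open in both E12.5 libraries was therefore also called in the E14.5 cartilage bar. Agreement among the lists was highest at gene starts: 71.1% of the regions in all 5 lists lay within 1 kb of a start.

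Recall was uneven between starts and distal sites, those farther than 1 kb from a start. Of the regions that the 4 other lists shared, E12.5 replicate 1 called 86.1% near starts (95% Wilson interval 85.5 to 86.8) and 49.5% of the distal ones (48.4 to 50.5). E12.5 replicate 2 called 98.3% near starts and 87.6% of the distal ones. Both values lay inside the MC range of 95.5% to 99.6% near starts and 82.8% to 96.0% distally. The sets differ by list: 8122 distal regions were scored for replicate 1, and 4183 to 4850 for each of the 4 others. Regions scored for those 4 had to be held by replicate 1 as well. The distal sites that replicate 1 lacked numbered 4105, and 68.7% of them (67.3 to 70.1) carried H3K27ac, an acetyl mark of active enhancers and promoters, in the authors' pooled E14.5 MC list. All Wilson intervals here cover counting error over regions only.

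**Figure D2:**
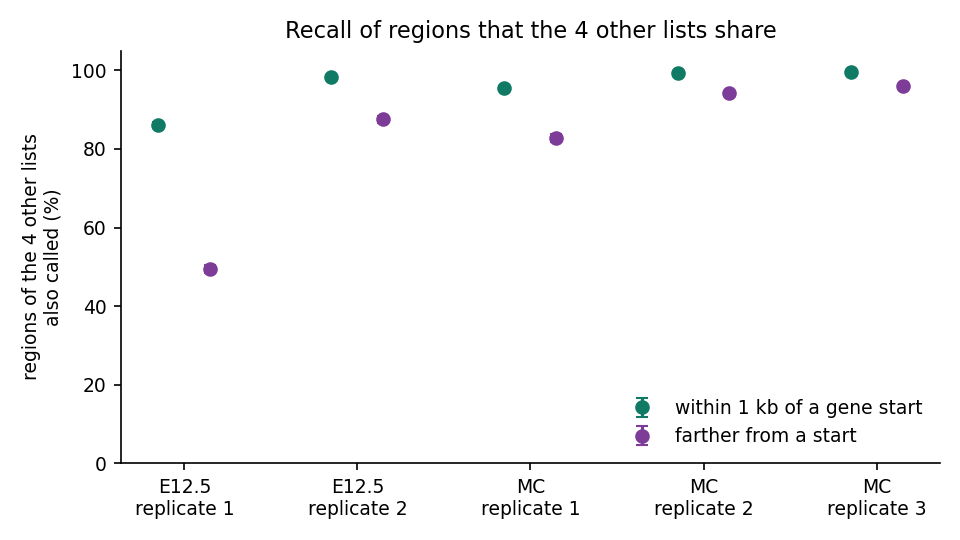
Share of the regions common to the 4 other lists that each list also called (y axis, percent), for the 2 E12.5 and 3 MC lists (x axis), near gene starts (green) and farther away (purple); bars, mostly smaller than the points, are 95% Wilson intervals. E12.5 replicate 1 falls to 49.5% at distal sites, and the 4 other lists lie between 82.8% and 96.0%.

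Regions that separated the stages were few. A peak in all 3 MC lists and in neither E12.5 list marked 2127 regions, called MC-only here, and 539 regions were E12.5-only, with a peak in both E12.5 lists and in no MC list. The counts depended strongly on which E12.5 library was used. Against E12.5 replicate 1 alone, 7853 of 80489 regions were MC-only and 17279 E12.5-only. Against replicate 2 alone, 2862 of 75174 were MC-only and 9649 E12.5-only. Both stage classes lay mostly away from gene starts: 4.65% of MC-only and 10.9% of E12.5-only regions were within 1 kb of a start. Against each E12.5 list alone that order turned: 21.7% and 7.8% with replicate 1, and 8.8% and 3.6% with replicate 2. With both lists, MC-only regions had a median of 7 genes within 500 kb, against 13 for E12.5-only regions and 13 for regions in all 5 lists. These medians of MC-only and E12.5-only regions were 8 and 17 against replicate 1 alone, but 10 and 6 against replicate 2 alone.

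The classes were then read with the forelimb and acetylation lists, which had no part in making them. A forelimb cartilage peak was present in at least 1 FL list at 84.1% of MC-only regions (82.5 to 85.6) and in all 3 FL lists at 46.6%. At E12.5-only regions these shares were 39.1% (35.1 to 43.3) and 2.60%. An MC-only region needs 3 lists and an E12.5-only region 2, so regions found in exactly 2 MC lists and no E12.5 list give a closer match: 68.2%, 63.6% and 62.1% of them had an FL peak, for the 3 pairs of MC lists. H3K27ac of E14.5 MC covered 76.0% of distal MC-only regions (74.1 to 77.8), 68.1% of distal E12.5-only regions (63.8 to 72.1) and 84.7% of distal regions in all 5 lists. The order of MC-only and E12.5-only regions in H3K27ac depended on the E12.5 library. It turned against replicate 1 alone (71.1% and 72.9%) and widened against replicate 2 alone (79.7% and 32.6%). Most MC-only regions were thus also called in limb cartilage of the same day, and a smaller share of E12.5-only regions was.

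Regions called in a single library showed how the 2 E12.5 libraries differ. E12.5 replicate 1 had 16650 regions that no other jaw list held, 41.1% of its regions, and replicate 2 had 8944 (22.2%), against 8943, 5319 and 4728 in MC. Of the regions of replicate 1 alone, 72.9% of the distal ones overlapped E14.5 MC H3K27ac, but 6.37% of the regions had an FL peak. Their median width was 1163 bp and a median of 18 genes lay within 500 kb. Of the regions of replicate 2 alone, 29.8% of the distal ones overlapped H3K27ac and 31.2% had an FL peak. Their median width was 551.5 bp, with a median of 5 genes within 500 kb. Regions of single MC lists had 47.6% to 61.2% with H3K27ac and 17.8% to 41.0% with an FL peak. The H3K27ac share of replicate 1 was above that range and that of replicate 2 below it, while in FL peaks replicate 1 was below the range and replicate 2 within it. The part of library quality in this was not tested.

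**Figure D3:**
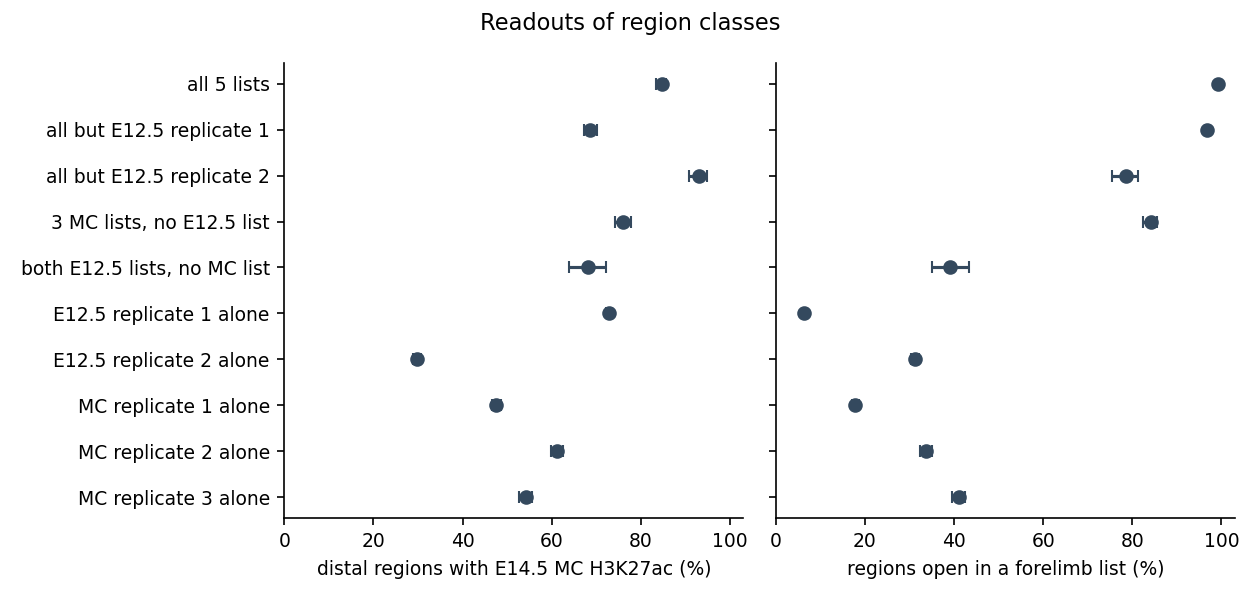
Percent of distal regions overlapping pooled E14.5 MC H3K27ac (left) and percent of regions with a peak in at least 1 of 3 FL lists (right), by the jaw lists that hold the region (y axis); points are shares and bars 95% Wilson intervals. MC-only regions reach 84.1% on the right and E12.5-only regions 39.1%.

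MC-only regions were spread over many genes, with 16 of the 2124 assigned at chondrogenic regulators and 6 at cartilage matrix genes. Each region was given to the gene whose span holds it, or else to the nearest protein-coding gene within 1 Mb, a rule of position that shows no regulation. Of 16608 genes with any region, 10.0% had an MC-only region. Among chondrogenic regulators, the transcription factors and signalling genes that drive or restrain cartilage formation, 10 of 17 had 1 or more: Sox9, Sox6, Wwp2, Trps1, Zbtb20, Bmpr1b, Ncam1, Cdh2, Creb5 and Nfatc1. These genes have wide surroundings, with a median of 16 regions each against 3 over all genes. Counted per region, 16 of their 319 regions (5.02%) were MC-only, against 2.39% of all assigned regions. Of the cartilage matrix genes, 5 of 20 had an MC-only region: Col11a1, Matn3, Hapln1, Cnmd and Col27a1, with 6 of 188 regions (3.19%), near the overall share. Mandibular patterning genes had 12 of 38 with an MC-only region but a per-region share of 2.92%, also near it. Blood genes had a higher share than the regulators, 8.33% (8 of 96 regions, 5 of them at Runx1 and 3 at Ptprc). Also above the overall share, but below the regulators, were reference genes at 4.35% (2 of 46). So were endothelium at 3.73% (5 of 134, with Kdr, Cdh5, Erg and Fli1) and neuron and Schwann cell genes at 3.66% (3 of 82, all at Isl1). Hox genes, which the jaw crest does not use, had 1 of 26 (Hoxb1).

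E12.5-only regions were assigned to 2.92% of genes and to 0 of 17 chondrogenic regulators, where 0 of 319 regions belonged to the class against 0.604% overall. Mandibular patterning genes had 5 of 38, with 7 of 480 regions (1.46%). Among them were Dlx3 and Msx2, homeobox genes of the arch, Barx1 of the proximal arch and tooth field, and Foxf1. This share was not particular to patterning genes. Per region, blood genes had 3.1%, muscle genes 1.94%, genes of hypertrophic cartilage and bone 1.57%, and tendon and fibroblast genes 1.46%. Cartilage matrix genes had 1.06%. Below the overall share were signalling genes (0.492%) and epithelial, endothelial, proliferation, Hox and reference genes (0%). Among markers of cells that the entire process would hold, Pax7 of muscle precursors had 2 E12.5-only regions and Neurog1 of sensory neuron precursors had 1. Markers of the same cells also had MC-only regions, 2 at the muscle gene Chrna1 and 3 at the neuronal gene Isl1, so muscle genes had 2 regions in each class. Epithelial and endothelial markers had E12.5-only regions at 0 of 25 and 0 of 14 genes, and MC-only regions at 2 of 25 (Dsg3 and Grhl1) and 4 of 14. The counts are small, and no test of them was made.

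Coordinates of the leading regions are on mm10. The MC-only region of best rank assigned to a chondrogenic regulator was chr15:50246247-50247460, intergenic, 407 kb from Trps1, a GATA-type repressor that acts in cartilage. The best at a matrix gene was chr12:8953460-8955172, within the span of Matn3, which encodes a matrilin of cartilage matrix. Gli3, a transcription factor of Hedgehog signalling, had a region among the 5 of best rank at chr13:15741452-15743036, 11.4 kb outside its span. These 3 regions carried E14.5 MC H3K27ac and had a peak in all 3 FL lists. The best at a patterning gene, chr2:71542313-71543329 just outside Dlx2, carried MC but not FL H3K27ac and was open in 2 FL lists.

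Among E12.5-only regions, chr17:30903651-30914786 stood out by its length of 11136 bp within Glp1r, a peptide hormone receptor gene, with a peak in 2 FL lists. Region chr10:102594264-102595194 lay 44.5 kb from Rassf9 and chr4:109979662-109981733 within Dmrta2, a transcription factor gene, both without MC H3K27ac and open in 2 FL lists. The best at a patterning gene, chr13:48715454-48716736, lay 48.9 kb from Barx1 and carried MC H3K27ac but had no FL peak. The best at a muscle gene, chr4:139875548-139877540, lay 42.0 kb from Pax7, with neither mark nor FL peak. For contrast, regions in all 5 lists included chr15:98001163-98006360 over the start of Col2a1, which encodes type II collagen, and chr16:42874230-42877211 within Zbtb20, a zinc finger repressor, whose worst rank in any list was 422.

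Peak cover per gene, the kilobases of top peaks in the gene's surroundings after scaling every list to the same total, allowed a test across genes. With both E12.5 lists as a group, limma on log2(kb + 0.5) called none, 0 of 16037 (0%), at an adjusted p of 0.05. Before adjustment 957 genes had p under 0.05, and the smallest adjusted p was 0.435. Counting peaks instead of kilobases called 65 genes higher and 19 lower in MC, and peaks cut to 500 bp called 47 and 19, so the absence of calls depended on that choice. All 3 MC lists lay above both E12.5 lists at 10.7% of genes and below both at 3.85%. Fold values on this scale understate the change of genes with little cover.

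The genes of smallest p did not pass the test. Slc13a4, a sulfate transporter gene, had 0 kb in both E12.5 lists and 1.46, 1.69 and 2.01 kb in MC (log2 difference 2.14, limma adjusted p = 0.435). Kdr, the VEGF receptor gene of endothelium, had 0.821 and 1.54 kb at E12.5 and 4.17, 3.56 and 4.24 kb in MC (1.45). Dsg3, a desmosomal gene of epithelium, had 0 kb in both E12.5 lists and 2.96, 1.35 and 1.64 kb in MC (2.26). Kdr and Dsg3 thus had more cover in every MC library than in both E12.5 libraries. Of their lists, 3 of 14 endothelial genes (21.4%) and 3 of 22 epithelial genes (13.6%) did, against 10.7% of all genes. Less cover in every MC library was found at 1 of 14 and 0 of 22, against 3.85% of all genes. In the other direction, Glp1r had 11.1 and 9.84 kb at E12.5 and 1.37, 0 and 0 kb in MC (-3.82). The 11136 bp region described above lies within this gene, but the scaled values do not measure its length. Selenov and Jsrp1, the latter a muscle gene, had between 1.23 and 2.02 kb at E12.5 and 0 kb in every MC list.

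Set against E12.5 replicate 2 alone, the library that resembles MC, limma again called none, 0 of 16037 (0%), and 1437 genes had p under 0.05 before adjustment. The lone library is taken to vary like the MC and FL groups. All 3 MC lists lay above replicate 2 at 21.2% of genes and below it at 30.2%. Cartilage matrix genes were distributed otherwise: 12 of 19 tested lay above in all 3 MC lists and 1 lay below. Their summed cover was 58.5 kb in E12.5 replicate 2 and 104, 110 and 109 kb in MC, and their median log2 difference was 0.51 against -0.05 over all genes tested. In E12.5 replicate 1 the same list summed to 139 kb, above every MC list, so the matrix genes ordered the 2 E12.5 libraries on opposite sides of MC.

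Individual matrix genes showed both patterns. Col2a1 had 13.1 and 4.34 kb at E12.5 (replicates 1 and 2) and 8.37, 14.2 and 11.5 kb in MC. Col11a2, a chain of type XI collagen, had 15.6 and 0.787 kb against 5.60, 8.39 and 3.74 kb. For both, only replicate 2 was below MC. Acan, the aggrecan gene, had 2.001 and 4.17 kb against 5.28, 6.51 and 5.46 kb, above both E12.5 lists (log2 difference 0.87, limma unadjusted p = 0.0934). Matn3 had 0.585 and 1.45 kb against 3.83, 2.27 and 3.20 kb (1.28, limma adjusted p = 0.743). Cnmd, which encodes chondromodulin, an inhibitor of vessel growth in cartilage, had 0.534 and 3.05 kb against 6.48, 5.24 and 4.97 kb (1.65, limma adjusted p = 0.743). Acan, Matn3, Cnmd, Col11a1 and Hapln1 were the 5 of 19 tested matrix genes whose 3 MC values all exceeded both E12.5 values (26.3%). The share over all genes was 10.7%. None of the 19 was below both, against 3.85% of all genes, and none passed adjustment. Matn1 ran the other way in replicate 1 alone, with 27.6 kb against 4.54 kb in replicate 2 and 5.14, 5.40 and 4.17 kb in MC.

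The chondrogenic regulators were already covered at E12.5 in replicate 2. Their summed cover was 71.9 kb in E12.5 replicate 1, 153 kb in replicate 2 and 143, 150 and 169 kb in MC. Sox5 had 3.13 and 16.1 kb at E12.5 and 14.8, 13.2 and 16.8 kb in MC, so replicate 2 lay within MC and replicate 1 far below. Sox9 had 5.62 and 7.69 kb against 9.23, 11.0 and 8.16 kb, and Sox6 had 5.74 and 14.1 kb against 16.3, 15.3 and 17.4 kb. Both were above E12.5 in every MC list by a margin that did not pass (log2 differences 0.48 and 0.82, unadjusted p = 0.222 and 0.0738, limma). Wwp2, a ubiquitin ligase gene that hosts a cartilage microRNA, had 2.31 and 5.01 kb against 7.07, 9.62 and 12.48 kb (1.34, limma adjusted p = 0.743). Trps1 had 0.637 and 12.01 kb against 11.4, 8.24 and 12.7 kb. Against replicate 2 the list's median log2 difference was -0.11, with 7 of 17 above and 4 below in all 3 MC lists. These shares were 41.2% and 23.5%, against 21.2% and 30.2% of all genes.

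**Figure D4:**
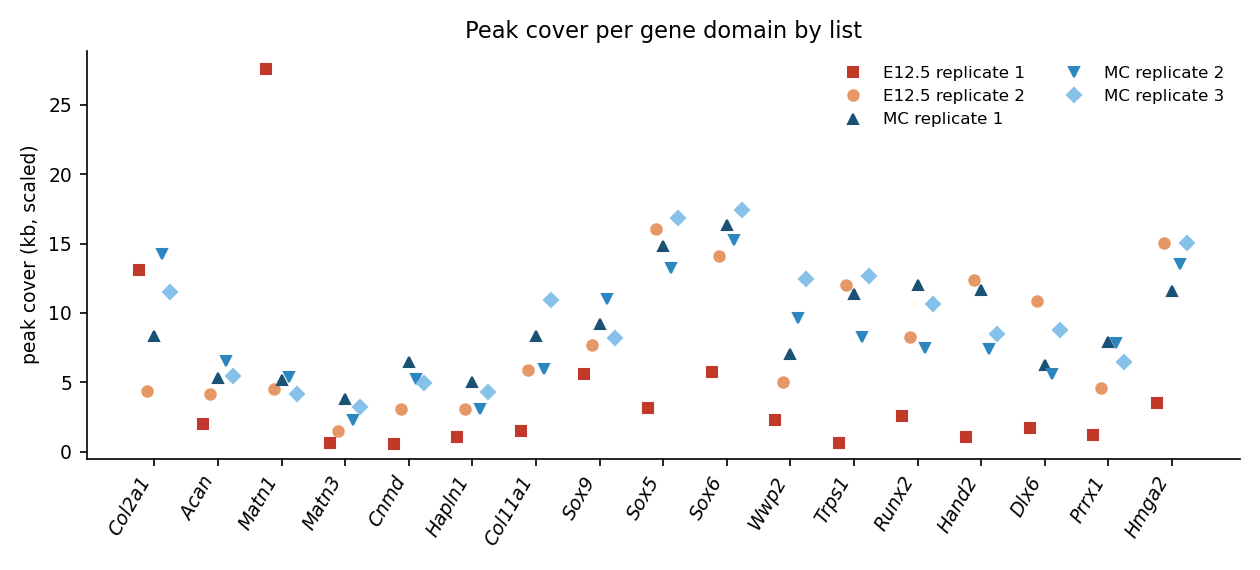
Peak cover in kb, scaled to equal totals (y axis), of 17 genes (x axis) in the 2 E12.5 and 3 MC lists; each point is a library. E12.5 replicate 1 (red squares) is the lowest point for Sox5, Sox6, Trps1 and Hand2 and the highest for Matn1 at 27.6 kb, while replicate 2 lies within or near MC for most.

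Patterning genes of the process did not stand far from all genes. Of 37 tested, 13 had less cover in all 3 MC lists than in E12.5 replicate 2 and 6 had more (35.1% and 16.2%, against 30.2% and 21.2% of all genes). Dlx6, a homeobox gene of the lower jaw, had 1.69 and 10.9 kb at E12.5 and 6.25, 5.57 and 8.74 kb in MC. Hand2, which marks the distal midline of the process, had 1.02 and 12.4 kb against 11.6, 7.41 and 8.48 kb. Osr1 had 0.863 and 9.42 kb against 3.95, 3.97 and 4.54 kb. In each of these, replicate 2 was above and replicate 1 below every MC list. Prrx1, a gene of skeletal mesenchyme, instead had 1.22 and 4.58 kb against 7.90, 7.83 and 6.45 kb.

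Markers of other cells of the process were covered at both stages. Muscle genes summed to 47.3 and 22.1 kb at E12.5 and 16.7, 16.3 and 19.5 kb in MC, below both E12.5 lists. In replicate 1, Pax7 alone made 28.0 kb of that sum. Myf5, the early myogenic factor, had 2.76 kb in replicate 2, 0 kb in replicate 1, and 0, 0 and 0.651 kb in MC. Tcf21, of head muscle precursors, had 1.56 kb in replicate 2 and 0 kb in the 4 other lists. Chrna1, a subunit of the muscle acetylcholine receptor and the muscle gene of smallest p, ran the other way, with 0.710 and 1.51 kb against 3.32, 4.05 and 3.82 kb (log2 difference 1.44, limma adjusted p = 0.743). Of 17 muscle genes tested, 1 lay above both E12.5 lists in every MC list (5.88%) and 0 below, against 10.7% and 3.85% of all genes. Neuron and Schwann cell genes summed to 39.3 and 41.3 kb against 23.6, 38.1 and 32.4 kb, and 9 of 16 tested were below replicate 2 in every MC list, against 30.2% of all genes. Stmn2, a neuronal gene, had 5.12 kb in replicate 2, 0 kb in replicate 1 and between 0.364 and 1.19 kb in MC. Epithelial genes did not separate the stages, at 58.4 and 47.0 kb against 45.5, 51.2 and 45.6 kb. The keratinocyte regulator Trp63 had 0 and 0.422 kb against 0, 0.347 and 1.60 kb. The part of these cells in the differences was not tested.

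**Figure D5:**
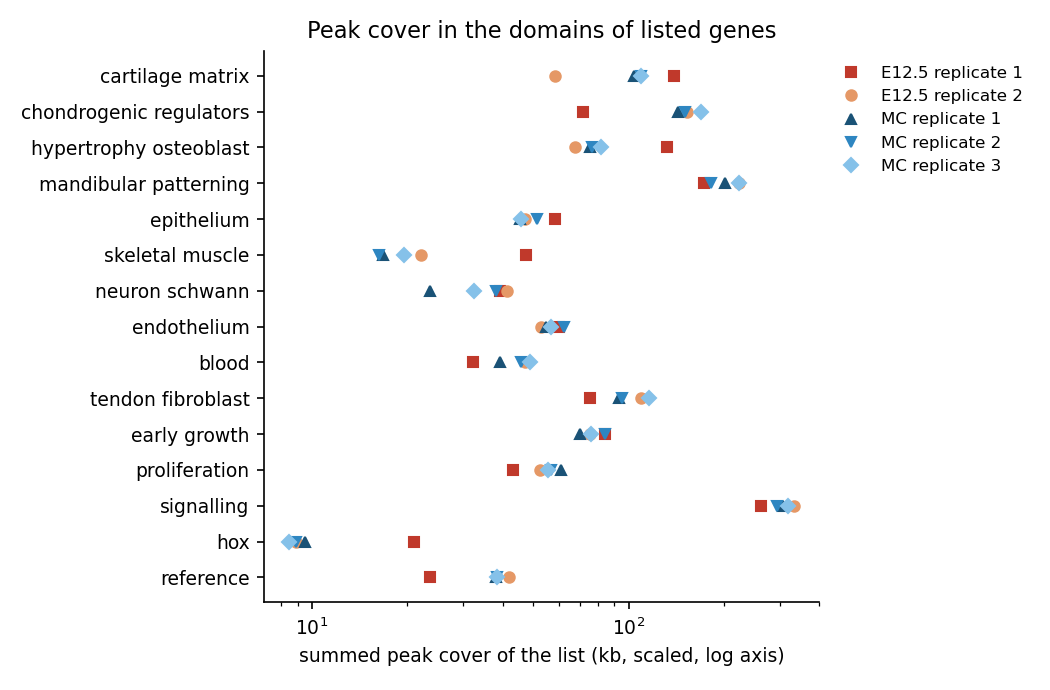
Summed peak cover in kb (x axis, log scale) of 15 gene lists (y axis) in the 2 E12.5 and 3 MC lists; each point is a library. Cartilage matrix genes have 58.5 kb in E12.5 replicate 2, 139 kb in replicate 1 and 104 to 110 kb in MC, and muscle genes are lower in MC than in both E12.5 lists.

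Set against E12.5 replicate 1 alone, limma with Benjamini-Hochberg adjustment called 4042 genes higher in MC (25.2%) and 1113 lower (6.94%). All 3 MC lists lay above this library at 58.0% of genes and below it at 24.6%. The calls followed gene density. Of genes in gene-poor stretches 40.4% were called higher and 1.76% lower, and of those in gene-dense stretches 9.05% and 12.53%. Gene density was also taken out of each list's log2 cover by a spline before the fit, written below as gene density in the fit. The median log2 difference then went from 0.962 to 0.377 in gene-poor stretches and from -0.225 to 0.418 in gene-dense ones. The called genes of largest difference were Srgap1, with 0 kb in replicate 1, 5.17 kb in replicate 2 and 13.2, 9.03 and 9.36 kb in MC (log2 difference 4.44, adjusted p = 0.00382), and then Clint1, Akap6 and Atp8a2, likewise at 0 kb in replicate 1 alone. The largest the other way was Slc22a12, a urate transporter gene (log2 difference -4.28). It had 15.6 kb in replicate 1, 0.823 kb in replicate 2 and at most 0.575 kb in MC. Glp1r followed (-3.90), with 11.1 kb in replicate 1 and 9.84 kb in replicate 2. Then came Muc5b, Itih4 and Atp6v1b1, genes of secretory, liver and kidney cells. Replicate 2 held at most 0.823 kb at Slc22a12, Muc5b, Itih4 and Atp6v1b1, unlike at Glp1r.

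In this comparison 11 of 17 chondrogenic regulators were higher in MC and 0 lower, against 25.2% and 6.94% of all genes, with a median log2 difference of 1.698 against 0.56 over all genes. With gene density in the fit those medians were 1.17 and 0.46, and 7 of 17 regulators were called higher, against 22.4% of all genes; the calls of Sox6, Foxa2, Bmpr1b and Creb5 were lost. Cartilage matrix genes split, 5 higher and 3 lower of 19, or 3 and 2 with gene density. Mandibular patterning genes had 14 of 37 higher and 1 lower (Foxf1, a forkhead gene), or 10 and 1 with gene density. Reference genes of general use had 4 of 14 higher and 0 lower, or 5 and 0. In summed cover of each of these 4 lists the 2 E12.5 libraries differed from each other by more than replicate 2 differed from the MC mean, so these calls describe 1 library.

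Gene starts were compared in windows of 300 bases, 250 before to 50 after each start, from RefSeq on GRCm38.p6, with 21045 windows of 17274 genes matched. All 5 lists had a peak over 9398 of them and none over 7012. Only 87 starts (0.413%) were open in all 3 MC lists and in no E12.5 list, and 41 (0.195%) in both E12.5 lists and no MC list. E12.5 replicate 1 alone lacked 1400 starts that the 4 other lists held, and replicate 2 alone lacked 116. Among windows of low GC content, the third below 51.3% GC, replicate 1 had a peak over 12.9%, replicate 2 over 20.1% and MC over 17.9%, 19.5% and 19.8%.

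The MC-only starts included some genes of cartilage and its surroundings. Among them were S100b, a calcium-binding protein of chondrocytes and glia, and Itga10, the collagen-binding integrin of chondrocytes. Others were Sox13, a relative of Sox5 and Sox6, Col23a1, a membrane collagen gene, and Tnn, which encodes a tenascin. The class was not particular to cartilage, and also held starts of Camp, Esm1, Irf7, Pparg and Vegfd. Matched starts of the fixed gene lists, cartilage matrix genes and chondrogenic regulators included, were not in this class. Those of Acan, Matn3, Hapln1 and Col11a1 were open in every jaw list. Those of Cnmd and Matn1 were not open in every MC list. Of the 87 MC-only starts, 82.8% carried E14.5 MC H3K27ac and 93.1% had a peak in an FL list. The E12.5-only starts included neuronal genes: Celf3 and Srrm4, splicing regulators of neurons, Camk2b, Tubb4a and Scn9a. They also included genes of other cells, such as Eng of vessels and Myh7 of muscle. Neuronal genes were not confined to this class, since Nlgn1, a synaptic gene, had an MC-only start. Of the 41 E12.5-only starts, 58.5% carried MC H3K27ac and 61.0% had an FL peak. These names were picked with their values in view, and the counts were not tested.

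The sequences of 5 such windows, 5′ to 3′, are shown because their starts mark the 2 stage classes, with each CG dinucleotide in capitals. The first 3 are MC-only (S100b chr10:76253586-76253885, plus strand; Itga10 chr3:96645334-96645633, plus strand; Sox13 chr1:133424163-133424462, minus strand). The last 2 are E12.5-only (Celf3 chr3:94478045-94478344, plus strand; Srrm4 chr5:116591768-116592067, minus strand).
S100b: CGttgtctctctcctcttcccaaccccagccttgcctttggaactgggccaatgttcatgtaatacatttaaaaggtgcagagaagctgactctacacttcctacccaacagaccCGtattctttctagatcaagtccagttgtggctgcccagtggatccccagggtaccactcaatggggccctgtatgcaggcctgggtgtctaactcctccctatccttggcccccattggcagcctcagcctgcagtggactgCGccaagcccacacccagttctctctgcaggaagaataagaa
Itga10: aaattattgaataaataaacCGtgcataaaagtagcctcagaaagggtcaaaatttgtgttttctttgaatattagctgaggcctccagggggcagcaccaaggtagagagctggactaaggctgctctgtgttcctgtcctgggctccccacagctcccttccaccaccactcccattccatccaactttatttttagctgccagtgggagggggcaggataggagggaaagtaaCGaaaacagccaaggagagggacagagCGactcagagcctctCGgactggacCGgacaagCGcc
Sox13: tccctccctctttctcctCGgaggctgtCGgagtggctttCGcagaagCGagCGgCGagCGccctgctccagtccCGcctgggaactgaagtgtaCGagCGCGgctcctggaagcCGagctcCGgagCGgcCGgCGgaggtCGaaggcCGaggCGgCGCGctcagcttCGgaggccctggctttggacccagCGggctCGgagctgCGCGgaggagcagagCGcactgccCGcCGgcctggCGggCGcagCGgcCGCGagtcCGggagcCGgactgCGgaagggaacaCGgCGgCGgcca
Celf3: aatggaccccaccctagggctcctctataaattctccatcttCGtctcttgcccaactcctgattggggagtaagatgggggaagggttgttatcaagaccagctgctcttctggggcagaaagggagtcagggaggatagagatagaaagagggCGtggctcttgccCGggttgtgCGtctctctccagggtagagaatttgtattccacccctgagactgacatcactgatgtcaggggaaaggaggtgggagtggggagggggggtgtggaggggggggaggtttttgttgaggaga
Srrm4: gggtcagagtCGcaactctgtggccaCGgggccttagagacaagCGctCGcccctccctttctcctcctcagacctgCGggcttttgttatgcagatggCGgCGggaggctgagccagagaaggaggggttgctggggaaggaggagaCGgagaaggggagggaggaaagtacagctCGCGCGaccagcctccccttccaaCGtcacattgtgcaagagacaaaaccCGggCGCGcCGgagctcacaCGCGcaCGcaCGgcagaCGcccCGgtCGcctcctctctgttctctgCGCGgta

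Both classes mixed start types. S100b holds 3 CG dinucleotides, Itga10 6 and Celf3 4, whereas Sox13 holds 40 and Srrm4 25. The median over MC-only starts was 14, over E12.5-only starts 8, over starts open in all 5 lists 23 and over starts open in none 3. Stage-separating starts thus had fewer CG dinucleotides than those open throughout, which was not particular to them. Starts called in a single list had medians of 5 to 7. Starts held by all lists but E12.5 replicate 1 had a median of 18, and by all but replicate 2, 14. In peak cover of the gene's surroundings S100b had 0 and 0.724 kb at E12.5 against 2.70, 0.757 and 1.17 kb in MC, and Itga10 had 0 and 0.473 kb against 2.24, 1.16 and 0.753 kb. Sox13 had 12.6 and 3.65 kb against 3.53, 4.87 and 7.26 kb. Of these 3 genes, S100b and Itga10 had more cover in every MC list than in both E12.5 lists, and Sox13 overlapped.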

How the data were processed

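ATAC-seq peak lists of 8 libraries were used as the authors deposited them: 2 of E12.5 mandible, 3 of E14.5 MC and 3 of E14.5 FL. Per the submitters' processing notes, Trim Galore, Bowtie2, SAMtools, Genrich and SEACR were used and the build was mm10, with no versions or settings given. Each deposited peak has a score, which grows with width and is at least 200 in every list, and a −log10 p. The authors' pooled H3K27ac lists, with a signal column, were used for overlap only. Depth is not given in the sources used here.

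The 43205 peaks of highest score per list were kept, on autosomes and X. Each base went to the smallest protein-coding gene span holding it, or the nearest within 1 Mb (RefSeq, GRCm38.p6, 21631 genes). Cover per gene was scaled to equal totals, genes with a mean under 0.3 kb were left out, and log2(kb + 0.5) was fitted over all 8 lists with limma 3.58.1 (R 4.3.3, trend, Benjamini-Hochberg 0.05). The script was tested on simulated data. Regions were merged peaks sharing 1 bp. Starts came from the RefSeq promoter table, or from both gene ends where it has no entry (it holds 79.9% of genes).

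Named genes are a fixed panel, the 10 largest called differences each way whose lists do not overlap between stages (or the 5 of smallest p where fewer than 5 passed), and 2 members of smallest p per gene list; other genes were picked with their values in view. The members and lists were chosen with earlier results of these data known. Some genes of these rules are not reported here, though the fits and counts include them. Sequence features of distal regions were not analysed here.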

Additional observations from a re-analysis of the deposited data

How the results depend on the processing

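The main limits are 2 E12.5 libraries that differ from each other, unknown depth, and an exact test that cannot go below 0.1. Against both E12.5 lists, genes higher and lower in MC numbered 0 and 0; they were 65 and 19 by number of peaks, 47 and 19 with peaks cut to 500 bp, 0 and 1 with 21602 top peaks or a pseudocount of 2 kb, and 0 to 4046 and 0 to 1122 when 1 library was left out, the upper values without E12.5 replicate 2. With a replicate block the counts were 0 and 0; same-numbered libraries did not deviate together (r = -0.11 and -0.32), so the numbers were not taken as pairs. Against replicate 1, the 4042 and 1113 became 1827 and 712 with peaks cut to 500 bp, 2177 and 630 by number, 2530 and 2409 unscaled, and 713 lower with gene density, an alternative chosen after seeing the data; leaving out 1 library gave 2742 to 4046 and 676 to 1145, the lowest of the latter without MC replicate 3. Against replicate 2, 0 and 0 became 106 and 228 (500 bp), 142 and 240 (number), 34 and 44 (21602 top peaks), 25 and 139 (every gene with cover) and 9 higher (pseudocount 0.1 kb), and stayed at 0 and 0 when 1 library was left out. The cause was not tested.

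MC-only regions numbered 1047 with 21602 top peaks and 2862 to 7853 with 1 library left out, and E12.5-only regions 212, then 702 to 17279, with 2549 from whole lists; fewer lists to satisfy gives more regions by construction. Against replicate 1, E12.5-only regions were 37324 from whole lists and 9411 with 21602 peaks, and leaving out an MC list gave 9592 to 12278 MC-only and 18879 to 20191 E12.5-only. Against replicate 2 the same settings gave 25523 and 3227 E12.5-only, 1368 MC-only with 21602 peaks, and 4555 to 5704 and 10852 to 12628. H3K27ac at distal MC-only regions was 83.9% with 21602 peaks, 78.0% ranked by p, and 70.1% to 79.7% with 1 library left out; at distal E12.5-only regions it was 63.3% from whole lists, 82.9%, 55.7% and 32.6% to 72.9%. An FL peak was present at 87.9% (whole lists), 86.0% (21602 peaks), 90.4% (peaks covering 50% of the region) and 76.5% to 93.3% of MC-only regions, and at 60.2% (peaks covering 50%) and 7.55% to 54.1% of E12.5-only regions. In each of these settings the FL share of MC-only regions stayed above that of E12.5-only regions. The order of the H3K27ac shares did not hold throughout. It turned without E12.5 replicate 2 (71.1% of MC-only and 72.9% of E12.5-only regions) and without MC replicate 2 (70.1% and 71.3%). Likeness ran from -0.0173 to 0.182 with 1 library left out, the near-start difference was -0.0648 at 2.5 kb and -0.235 to 1.28, and the width difference was 59.3 bp from whole lists and -378 to 113 bp, lowest without E12.5 replicate 2 and highest without replicate 1. From whole lists the near-start difference was 7.32 points (exact p = 0.1). The differences of Chd5 and Grin2c were 3.16 and 2.65 without E12.5 replicate 1 and -2.65 and -1.25 without replicate 2, and that of Myod1 against replicate 1 turned sign (1.96) with 21602 peaks.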

Other observations

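Genes with the most stage-separating regions were not those of the fixed lists. Rad51b, a gene of DNA repair, had 7 MC-only regions and Cd9, a tetraspanin gene, had 6. Runx1, a regulator of blood and of early cartilage progenitors, had 5 MC-only and 2 E12.5-only regions, and Efnb2, an ephrin ligand gene of vessels and crest, had 5 MC-only regions. Ephb2, an ephrin receptor gene, and Rgs3, which restrains G-protein signalling, had 4 E12.5-only regions each. They were picked with their values in view.

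MC replicate 2 was the MC library nearest to E12.5 replicate 1. Across genes, the peak cover of E12.5 replicate 1 correlated with MC replicates 1, 2 and 3 at 0.46, 0.60 and 0.47, and that of E12.5 replicate 2 at 0.76, 0.73 and 0.82; genes are not independent replicates, and the values share scale and gene spans. MC replicate 2 was also the MC list with the most cover in gene-dense stretches, at 23.7%.

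The authors' pooled E12.5 list shared more bases with E12.5 replicate 1 than with replicate 2, with a Jaccard index of 0.566 against 0.411 for their top peaks.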
